A study of Mus musculus with 2 samples.

Results

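The spliced transcript models described here carry at least 1 splice site that the reference gene annotation does not contain. TALON, the program credited in the deposited annotation, places such models in its class NNC, for new and not in the catalogue. A model was kept when it was NNC with at least 5 reads in either of the 2 libraries, and models were matched between libraries by chromosome, strand and every intron. This gave 408 models in replicate 1 and 399 in replicate 2, which together are 699 distinct structures out of 29349 NNC structures and 117113 spliced structures of all classes. The structures were chosen by the deposited class and by the read number, so both are given as a description without a test.

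Both libraries hold long-read RNA sequences of adrenal gland from C57BL/6J mice obtained from The Jackson Laboratory, with total RNA as the stated molecule and no treatment, and both belong to 1 group. The labels name separate biosamples but a single donor entry. A free-text label says male, the sex field was not collected and the age is unknown. Nothing says that the biosamples came from separate animals, so the difference between the libraries may be technical. The libraries held 848782 reads in replicate 1 and 545229 in replicate 2, so that 1 read is worth 1.18 and 1.83 CPM (counts scaled to the same library total). All 6 cortex markers and all 6 medulla markers were read in both libraries and none of 5 kidney markers was. In replicates 1 and 2, summed levels were 55748 and 82112 CPM for the cortex markers and 13155 and 25908 CPM for the medulla markers. They were 229 and 1047 CPM for 4 endothelial markers and 852 and 273 CPM for 3 macrophage markers. The 3 adipocyte markers summed to 201 CPM in replicate 1, where all were read, and 42.2 CPM in replicate 2, where 1 was. The part of these cells in the results below was not tested.

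Splicing removes an intron between a donor site at its start and an acceptor site at its end, and most introns begin with the bases GT and end with AG. The spliceosome can choose between alternative donors or acceptors that lie very close together, and tandem acceptors spaced by a single codon are a well-known class. A shift that is no multiple of a codon changes the reading frame, and messages with a stop codon well before the last exon junction are often removed by nonsense-mediated decay. Long reads cover many exons of a molecule, but the exact border of each exon depends on how the read is aligned, and very short exons are known to be difficult for aligners to place.

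The sequences of the commonest kinds of new site are printed first, because the distances given below peak at these spacings. They come from GENCODE M21 transcripts placed on mm10 (GRCm38), are written 5′ to 3′ on the strand of the gene, and include intron bases only where another annotated transcript has them in an exon. In donor windows the capitals mark the first 2 intron bases at the annotated site and, after it, at the new site 4 bases downstream.
Idh3g, chrX:73782661-73782684, minus strand: catttcctcaGTaaGTacctgcct
Lmf1, chr17:25585843-25585866, plus strand: ggcagatctgGTaaGTagagcctc
Fth1, chr19:9984318-9984341, plus strand: ggatataaagGTaaGTagatccta
Scarb1, chr5:125283885-125283908, minus strand: gcgcagccagGTaaGTaggagggg
Slc25a3, chr10:91123902-91123925, minus strand: gccatcttagGCaaGTgagcgcga
Sqstm1, chr11:50202385-50202408, minus strand: ctcccaccagGCatGTggtcacca

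In the next donor windows the new site lies 2 bases downstream of the annotated one in Alas1 and Eef2, and 3 bases upstream in H2afz and Psmc3, where the new GT therefore comes first.
Alas1, chr9:106238063-106238084, minus strand: gggacgcttgGTGTgtgcacgg
Eef2, chr10:81180402-81180423, plus strand: tatggtgcagGTGTgccactag
H2afz, chr3:137866128-137866150, plus strand: attgctggtgGTgGTatgtcatc
Psmc3, chr2:91055698-91055720, plus strand: aggagacctgGTgGTgagtgata

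The next windows show acceptors, in which capitals mark the AG at the annotated intron end and the AG at the new intron end 3 bases downstream.
Cdkn1c, chr7:143460666-143460688, minus strand: acctccgcAGcAGaacagcgatg
Slc25a3, chr10:91123694-91123716, minus strand: tcccccgcAGgAGgatgttctcg
Mettl9, chr7:121076120-121076142, plus strand: tttgttctAGtAGgtggcaagtg
Puf60, chr15:76077690-76077712, minus strand: ctgcctgcAGcAGgtcaatggcc

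New sites lay close to annotated ones. The 699 structures held 821 distinct new sites, 503 donors and 318 acceptors, and each was set against the nearest annotated site of the same kind on the same strand. Of these, 372 (45.3%, exact 95% interval 41.9 to 48.8) were within 10 bases. The median distance was 17 bases for donors and 16 for acceptors. A further 117 sites were 11 to 50 bases away, 178 were 51 to 1000 bases away and 154 were farther.

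The distances were uneven. The new donor lay exactly 4 bases downstream in 134 cases, against 24 at 2 bases downstream, 15 at 3 bases upstream and 8 at 5 bases downstream. The new acceptor lay 3 bases downstream in 48 cases, 2 bases downstream in 28, 4 bases downstream in 19 and 3 bases upstream in 16. Only 4 donors and 1 acceptor were a single base from an annotated site. Within 30 bases, 79.5% of 278 donors and 73.9% of 180 acceptors lay downstream. At those distances 51.1% of acceptors (exact 95% interval 43.6 to 58.6) were displaced by a multiple of 3, against 14.4% of donors (10.5 to 19.1).

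**Figure D1:**
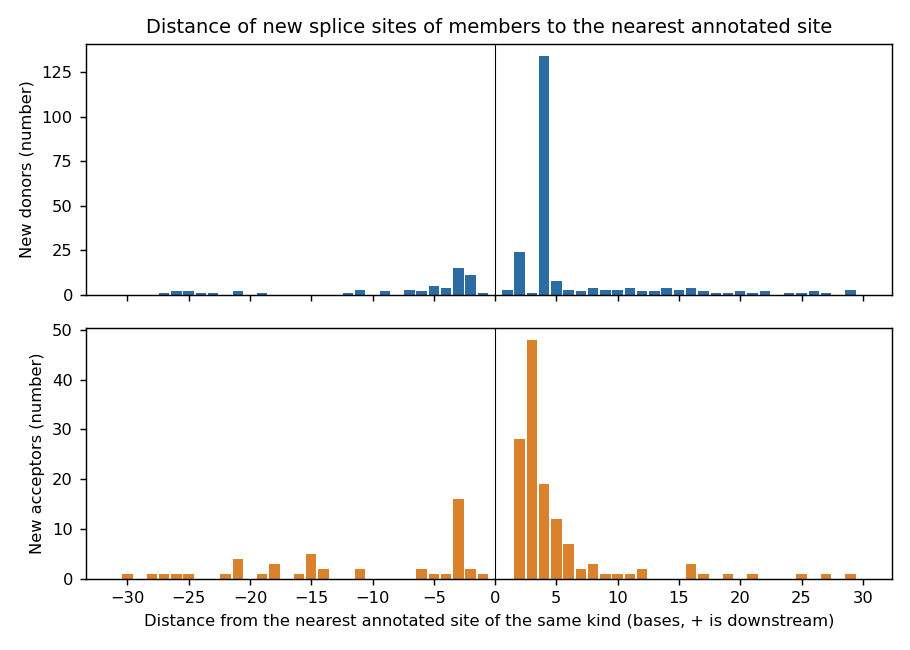
Number of new donors and new acceptors at each signed distance in bases from the nearest annotated site of the same kind, with positive values downstream in the direction of the gene. The bar for donors reaches 134 at 4 bases and the bar for acceptors 48 at 3 bases.

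Both spacings are also found among annotated sites. Among 85257 annotated donors with reads, 170 (0.199%) had another annotated donor 4 bases downstream and 127 (0.149%) had a new one there. Among 85085 annotated acceptors with reads, 463 (0.544%) had another annotated acceptor 3 bases downstream and 48 (0.0564%) had a new one. Among donors, the annotated count is also higher at 4 bases than at 3 bases (26) or 5 bases (45).

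The acceptor spacing was commoner among structures with more reads, and the donor spacing was not. New acceptors 3 bases downstream made up 4.59% of the new acceptors of NNC structures with 1 read, 10.3% at 2 to 4 reads and 15.1% at 5 or more. Acceptors 3 bases upstream made up 0.962%, 2.42% and 5.03% over the same steps. Donors 4 bases downstream made up 25.5%, 28.3% and 26.6%. The read minimum falls between the last pair of these steps. Exactly 171 structures had 5 reads in their higher library and 354 had 4.

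Most new sites whose bases could be read had the GT or AG of ordinary introns. Letters were known for 200 of 503 new donors and 209 of 318 new acceptors. Of the donors, 190 began with GT and 10 with GC, and of the acceptors 205 ended with AG and 4 with AT, so that 395 of 409 (96.6%) had GT or AG. The same measure gave 98.6% of 16780 annotated donors and 99.7% of 15149 annotated acceptors. Among the new donors 4 bases downstream, 40 had letters and 39 of these began with GT. In 33 the annotated site was GT as well, and in 6 it was GC with a GT at the new site, as in Slc25a3 and Sqstm1 above. All 48 acceptors 3 bases downstream and all 28 acceptors 2 bases downstream ended with AG.

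The surrounding letters differ in how common they are. A GT at intron bases 5 and 6, which is what a donor 4 bases downstream needs, was present in 39.6% of 16520 annotated donors with letters. An AG right after the first exon base, which is what an acceptor 3 bases downstream needs, was present in 5.13% of 84283 annotated acceptors. These are counts of letters and not of sites in use. All motifs (GT, GC, AG, AT) were read on the strand of the gene only.

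Most new sites moved the border of an annotated exon. This was the case for 547 sites. A further 114 bounded an intron inside an annotated exon, 74 ended a new first exon, 68 bounded a new internal exon and 18 began a new last exon. An intron inside any annotated exon was classed first, even where its end was a small shift, as in Hnrnpk below. A moved border means only that the exon overlaps an annotated exon, at any distance. New donors lay mainly in annotated introns (262 of 503), while the largest class of new acceptors lay in coding exons (138 of 318), ahead of introns (75). Of the structures, 581 had 1 new site, 101 had 2 and 17 had 3 or more. They had a median of 8 exons, and 695 of them lay in 525 annotated genes, of which 428 had a single member, while 3 were antisense to a gene and 1 was intergenic.

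The share of splicing that a new site took was small at most sites. It was measured for the 631 new introns with 1 new and 1 annotated end as the reads of the new intron in percent of the reads of all introns that share the annotated end, called use below. Median use over both libraries was 4.42%, with quartiles of 1.34% and 17.2%, and 331 introns were under 5%. A low use can be seen only where the site is deeply read, because a structure needed 5 reads. Use reached 50% or more in both libraries in 63 introns and 90% or more in 29.

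The kinds of shift differed in use and also in the depth of the genes they came from. Donors 4 bases downstream had a median use of 1.44% over 117 introns, at annotated sites with a median of 473 and 185 reads in replicates 1 and 2. Acceptors 2 bases downstream had 1.16% over 27 introns, at sites with 447 and 131 reads. Acceptors 3 bases downstream had 7.20% over 46 introns, at sites with 55 and 93 reads. Acceptors 3 bases upstream had 28.7% over 16 introns, at sites with 42 and 46 reads. At sites with 500 or more reads the medians were 0.979% for donors 4 bases downstream (78 introns), 0.735% for acceptors 2 bases downstream (18) and 1.36% for acceptors 3 bases downstream (7). At sites with under 100 reads they were 51.1% (9 introns) for donors 4 bases downstream and 30.8% (12) for acceptors 3 bases downstream. No order between these kinds is drawn from the pooled medians.

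**Figure D2:**
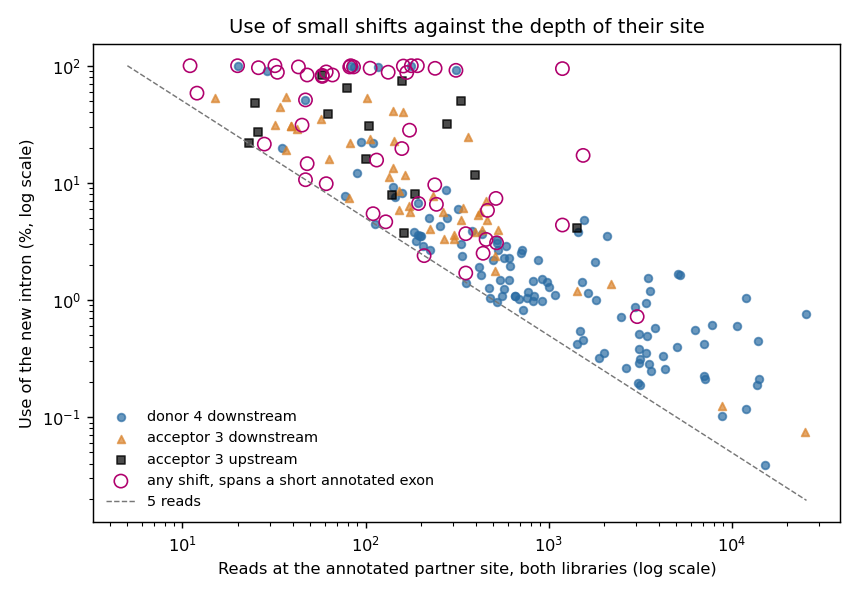
Use of new introns in percent, both libraries summed, against the reads of the annotated partner site, both on log axes, for donors 4 bases downstream (circles), acceptors 3 bases downstream (triangles) and 3 bases upstream (squares). The dashed line is the use that 5 reads give at each depth, and open rings mark introns of any shift that span an annotated exon of up to 30 bases.

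High use went with short annotated exons. A new intron was counted as spanning one when an annotated exon of up to 30 bases lay between its annotated end and the annotated site nearest its new end. This held for 49 of 631 new introns (7.77%). It held for 22 of the 63 with use of 50% or more in both libraries (34.9%, exact 95% interval 23.3 to 48.0), for 14 of the 29 with 90% or more (48.3%, 29.4 to 67.5), and for 9 of the 331 under 5% (2.72%, 1.25 to 5.10). Among donors 4 bases downstream it held for 6 of 8 with use of 50% or more and for 1 of 109 below that. It held for none of the 46 acceptors 3 bases downstream.

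In 48 of these 49 introns the exon next to the new intron was longer than annotated. The number of added bases was within 5 of the length of the short exon in 27 introns, and in 4 of these 27 it was equal. In 13 the annotated introns on either side of the short exon had no read in either library. Which structure the RNA molecules held in these places was not tested.

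Several of the most read structures are of this kind. For 3 of them the bases added to the exon and the annotated short exon that is spanned are printed below, in lower case because no part is singled out.
Hnrnpk, bases added, chr13:58394060-58394075, minus strand: gttgagtatcaataat
Hnrnpk, short exon, chr13:58393853-58393868, minus strand: ggtggttctggatatg
Capn2, bases added, chr1:182484186-182484202, minus strand: gtaccggcagaggatgg
Capn2, short exon, chr1:182482536-182482547, minus strand: gttccagaggag
Uchl1, bases added, chr5:66676323-66676331, plus strand: gtaagcata
Uchl1, short exon, chr5:66676436-66676447, plus strand: atgctgaacaaa

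In Hnrnpk, which encodes an RNA-binding protein of the nucleus, the new donor lay 16 bases downstream and the spanned exon is 16 bases long. The pair of 16-base runs has the same letter at 8 positions. The new intron had 481 of the reads at its acceptor in replicate 1 (93.9%) and 644 in replicate 2 (94.8%). The annotated introns on either side of the short exon had no read in replicate 1 and 1 in replicate 2. A second new donor 5 bases downstream took 4.49% and 4.27%. Hnrnpk has processed copies in the genome, so its read assignment is uncertain.

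In Capn2, which encodes the catalytic subunit of a calpain protease, the donor lay 17 bases downstream and the spanned exon has 12 bases. All 46 reads of replicate 1 and all 146 of replicate 2 at the acceptor used the new intron. Chmp1a, an ESCRT-III component, had a donor 25 bases downstream across an exon of 20 bases, with a use of 95.6% and 94.8%. Pitpnb, a phosphatidylinositol transfer protein, had 8 bases added and a spanned exon of 8 bases, with a use of 100% and 99%. In Idh3g, the gamma subunit of a mitochondrial isocitrate dehydrogenase, the donor 4 bases downstream spanned an exon of 12 bases and took 92.8% and 80.6%. Lmf1, a lipase maturation factor whose donor is printed above, had 100% and 92.9% across an exon of 11 bases. The donor of Col6a1, a collagen VI chain, lay 4 bases downstream across an exon of 9 bases and took 100% in both libraries. Uchl1, a neuronal ubiquitin hydrolase, had 94.9% (94 of 99 reads) and 100% (7 of 7).

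Bsg differed from the genes just named in that the annotated form was common. It was not alone in this among the 49 introns. The first annotated intron beside the short exon had 2964 and 48 reads in Rpl41 and 210 and 268 in Derl1, in replicates 1 and 2. Bsg encodes basigin, the membrane partner of lactate transporters. Its new acceptor lay 28 bases upstream across an exon of 25 bases and took 17.2% and 16.5% of the reads at the donor. The annotated introns on either side of the short exon had 1205 and 1208 reads in replicate 1, and 70 and 71 in replicate 2.

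The other 41 introns with use of 50% or more in both libraries spanned no such exon. The acceptor 37 bases upstream in Col6a1 took 10 of 10 and 136 of 138 reads. The donor 4 bases downstream in Cpm, a membrane carboxypeptidase, took 96.6% in both libraries. The acceptor 3 bases upstream in Fam114a2 took 72.4% (97 of 134) and 79.2% (19 of 24). In Tmco3 the acceptor 3 bases downstream took 57.9% (11 of 19) and 51.8% (43 of 83). Penk encodes the precursor of the enkephalins, opioid peptides of chromaffin cells. All reads at its donor, 44 and 9, ended at an acceptor 1 base upstream of the annotated one, and the structure made up 89.6% and 100% of the reads of the gene.

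Just below that level, the acceptor 3 bases upstream in Aebp1, a gene of the extracellular matrix, took 53.8% (exact 95% interval 37.2 to 69.9) and 49.1% (43.3 to 55.0). The donor 10 bases downstream in Dctn2, a dynactin subunit, took 46.9% (40.0 to 53.9) and 47.5% (39.1 to 56.1). In both genes the intervals of the 2 libraries overlap. The Dctn2 window, with capitals at the annotated and the new intron start, is printed because the new donor took a similar share in both libraries.
Dctn2, chr10:127267473-127267502, plus strand: gtttgatgcgGTaagactgtGTgctacctc

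The 12 most read structures ranged from 117 to 495 reads. They include the Hnrnpk, Idh3g, Bsg, Chmp1a, Capn2, Dctn2 and Aebp1 structures above. The first is a structure of Cct6a, a subunit of the CCT chaperonin, at chr5:129786998-129846371 on mm10, with 185 reads in replicate 1 and 310 in replicate 2. It took 75.8% and 78.3% of the reads of the gene. Its new intron of 50376 bases runs from a donor 61 bases downstream to an acceptor 33 bases upstream of the nearest annotated sites, so both ends are new.

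Repeated letters at the ends of a new intron leave its exact borders undefined by sequence. Over the 134 new introns with letters at both ends the median repeat was 2 bases.

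Star, which carries cholesterol into mitochondria for steroid synthesis, had a structure with a donor 4 bases downstream and 78 and 105 reads. These are 0.652% and 0.680% of 11962 and 15435 reads of the gene, a share that was nearly the same in both libraries. Mrpl33, a protein of the mitochondrial ribosome, had 145 reads and 1 read of a structure with a donor 8 bases downstream, and the whole gene had 175 and 5. Srd5a2, a steroid reductase, had 120 and 2 reads of a structure with a new last exon, whose acceptor lay 3606 bases downstream. These made up 5.85% and 0.662% of the gene.

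**Figure D3:**
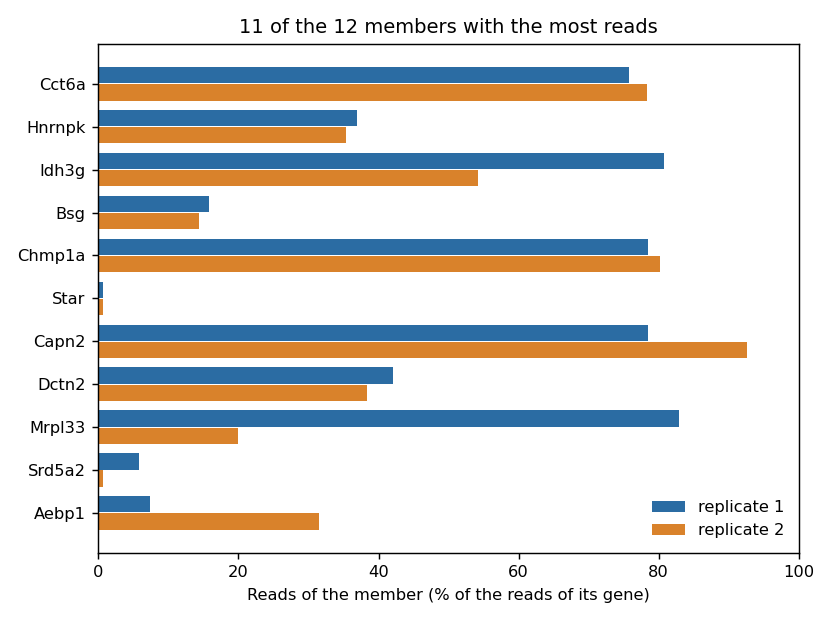
Reads of 11 of the 12 most read structures in percent of all reads of their gene, with 1 bar for each library. Cct6a and Chmp1a lie between 75.8% and 80.2% in both libraries, Star lies at 0.652% and 0.680%, and Mrpl33 lies at 82.9% and 20%.

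New internal exons numbered 119, with a median of 131 bases. This count is wider than the class of 68 sites given above, because it includes exons that kept 1 annotated end. Some of these are annotated exons with a changed length, whose new site was classed above as a moved border. The Nr5a1 exon with a donor 108 bases downstream is an example. In 38 of the 119 both ends were new and 43 had a length that is a multiple of 3. Beside the Cct6a exon of 209 bases, exons in Cyp11a1, Gm28382 and Actg1 were among those with the most reads. Each of these exons kept 1 annotated end. The Cyp11a1 exon of 98 bases, at chr9:58019399-58019496 in the gene of the cholesterol side-chain cleavage enzyme, had 31 and 62 reads. It ends at an annotated donor and begins at an acceptor 106 bases downstream of an annotated one, with the new intron before it inside an annotated exon. The Gm28382 exon of 107 bases had 70 and 23, and the exon of 356 bases in Actg1, a cytoplasmic actin, had 30 and 44. An exon of 51 bases with both ends new in Tbc1d15, a GTPase-activating protein, had 4 and 43.

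Genes of steroid synthesis held 56 members in 11 of the 15 listed genes with at least 20 reads. Cyp21a1 (the steroid 21-hydroxylase) held 13, Cyp11b1 (the final enzyme of corticosterone synthesis) held 11 and Star held 10. In these genes the members were a small share of the reads: 1.34% and 1.16% for Cyp21a1, 1.84% and 2.65% for Cyp11b1, and 1.25% and 1.17% for Star. Over the whole list they were 1.21% and 1.62%, beside 0.792% and 1.25% of all reads of the libraries. Cyp21a1 has a pseudogene copy, Hsd3b1 has close relatives and Cyp11b1 has the paralog Cyp11b2, so their members are uncertain. Cyp11b2 had 46 reads in replicate 1 and 844 in replicate 2.

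Within this list, single structures differed in where they fell. The most read member of Cyp11b1 had an acceptor 21 bases upstream and 38 and 73 reads, the most read of Cyp11a1 a donor 4 bases downstream and 51 and 59 reads, and that of Hsd3b1 an acceptor 31 bases downstream and 67 and 12 reads. In Nr5a1, which encodes the steroidogenic factor SF-1, a structure with a donor 108 bases downstream had no read in replicate 1 and 43 in replicate 2, where it was 8.37% of the gene. Its new intron had 0 of 29 and 53 of 398 reads at its acceptor. In the comparison of libraries given below it was not called (adjusted p = 0.318, Fisher exact). The gene itself had 96 and 514 reads.

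Chromaffin genes held 22 members in 9 of 21 genes, at 1.21% and 2.38% of their reads. Cyb561, the cytochrome that supplies electrons inside secretory granules, had a new first exon with 12 and 88 reads (4.20% and 8.77% of the gene) and a second structure with 15 and 46. Chromogranin A (Chga) had 5 members, among them a pair with donors 4 bases downstream at 21 and 37 reads and at 17 and 36 reads. Chromogranin B (Chgb) also had 5, at 0.729% and 0.951% of its reads. Dbh, which makes noradrenaline, had 4 members at 4.55% and 7.12% of its reads, the most read with 2 and 21 reads. Th, the first enzyme of catecholamine synthesis, had 1 with 8 and 2 reads.

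The other lists were mixed. Genes of cholesterol synthesis and storage held 3 members in 2 of 20 genes (0.407% and 0.771%), and chaperones held 11 in 9 of 15 genes (0.205% and 0.774%). Splicing factors held 6 in 4 of 25 genes (8.43% and 8.67%), of which the most read were those of Hnrnpk. Hnrnpk alone, whose read assignment is uncertain, held 235 of the 242 member reads of this list in replicate 1 and 305 of 339 in replicate 2. Whether a gene held a member moved with its depth. Over all annotated genes with at least 20 reads, 494 of 7728 held a member. The share was 2.23% among those with 20 to 99 reads and 80.0% (40 of 50) among those with 2000 or more. The median gene of the steroid list had 1992 reads, against 1000 for the chaperones, 192 for the splicing factors, 181.5 for the cholesterol list, 109 for the chromaffin list and 66 over all annotated genes with at least 20 reads.

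The coding frame was compared for 413 members with an annotated coding transcript that shares all their other introns, start and stop. The frame was kept in 139 (33.7%). It was kept in 46 of 233 members with a single new donor (19.7%, exact 95% interval 14.8 to 25.4) and in 71 of 129 with a single new acceptor (55.0%, 46.0 to 63.8). In a further 153 members the new intron lay outside the coding part.

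Among acceptors the frame was kept more often where use was high. It was kept in 23 of 28 acceptors with use of 20% or more (82.1%, exact 95% interval 63.1 to 93.9) and in 30 of 73 under 5% (41.1%, 29.7 to 53.2). Donors showed 5 of 31 (16.1%, 5.45 to 33.7) and 28 of 169 (16.6%, 11.3 to 23.0). Of the 150 new introns with use of 20% or more, 28 spanned a short annotated exon, against 9 of 331 under 5%. They include donors, as in Capn2 and Chmp1a, and acceptors, as in Trim11. The frame in such places depends on which structure the RNA held, which was not tested. Low use was also seen only at deeply read sites. For 213 members the letters were known up to a stop codon. The annotated stop was kept in 88, an earlier stop came first in 115 and a later one in 10. In 85 of the 115 the earlier stop lay more than 50 bases before the last junction. Examples are the Capn2 structure at 758 bases and the Dctn2 structure at 1015 bases before it. The Capn2 structure spans a short annotated exon, and which structure its RNA held was not tested. All these stops are readings of the model's letters and no protein or RNA decay was measured.

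Members were often found again in the second library, more so with more reads. Of the 408 with at least 5 reads in replicate 1, 260 (63.7%, exact 95% interval 58.9 to 68.4) had at least 1 read in replicate 2. In the other direction 298 of 399 were found (74.7%, 70.1 to 78.9). With 20 or more reads these shares were 91.2% of 57 and 98.4% of 61. At that depth structures made of known sites in new combinations (the class NIC) were found in 84.5% of 97 and 91.9% of 135, and spliced known structures in 93.7% and 98.7%. At 5 to 9 reads the shares were 55.7% and 63.6% for members, 69.6% and 66.4% for NIC and 76.8% and 84.1% for known structures.

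Length moved with these shares. The median length was 1480.5 bases among members of replicate 1 and 2699 bases among those of replicate 2. In the shares by length, a member took the longer of its lengths in the 2 libraries. A member found in both libraries could thus move to a longer class. Of the members of replicate 1, 36.5% of the 197 under 1500 bases were found in replicate 2, against 94.8% of the 77 with 2500 or more. Of the members of replicate 2, 66.9% of the 257 with 2500 or more were found in replicate 1, against 88.0% of 133 with 1500 to 2500. In all, 450 structures were read in both libraries, 148 in replicate 1 only (median 977.5 bases) and 101 in replicate 2 only (median 2951 bases). At least 5 NNC reads in both libraries were reached by 108.

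**Figure D4:**
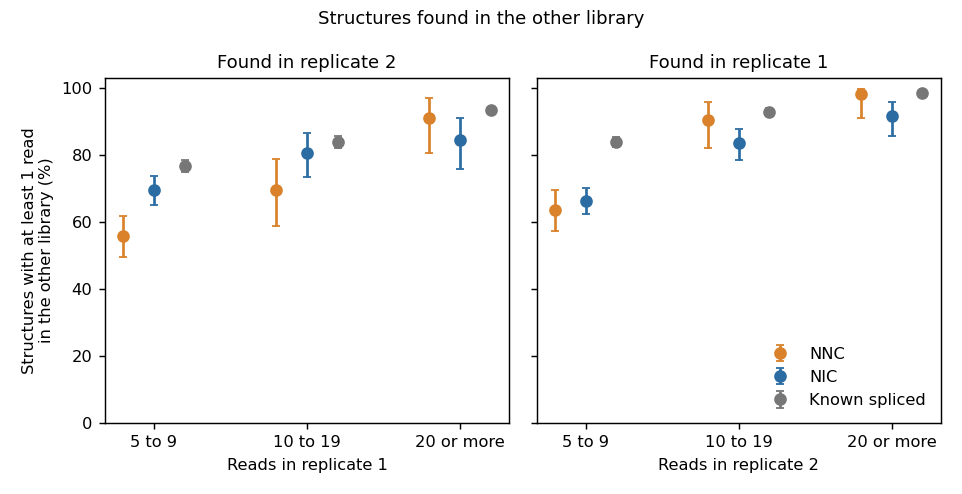
Percent of structures with at least 1 read in the other library, by reads in the first library, for NNC, NIC and known spliced structures, with exact 95% intervals. The 3 classes lie above 84% in both directions at 20 or more reads.

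The same structure did not always carry the same class. Of the 450 read in both libraries, 360 were NNC in both and 90 had another class in 1 of them, 76 of these NIC. In the deposited models, 1547 NIC models of replicate 1 and 2686 of replicate 2 held a splice site that the annotation lacks. The number of NNC models is therefore no count of all models with an unannotated site.

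The use of new sites was compared between the libraries with a two-sided Fisher exact test of each intron against all others sharing its site, adjusted by Benjamini-Hochberg over 3666 comparisons of annotated and new introns. With 1 library on each side the test compares these libraries, not conditions, and a member that reached 5 reads in only 1 library was chosen partly for being high there. Over all introns 5.4% were called at an adjusted p of 0.05. Of the 273 new introns of members tested at their annotated site, 11 (4.03%) were called, a share near that over all introns, with 4 higher and 7 lower in replicate 2. Without the filter on the reads of the intron and of the others, over 33776 comparisons, 6 of the 11 remained called. The adjusted Fisher exact p of the other 5 was then 0.0510 in Srd5a2, 0.104 in Prss35, 0.262 in Scg2 and 0.379 in both introns of Itpk1. The median absolute difference was 1.39 percentage points, beside 4.0 over all introns. New introns had a low use, with medians of 1.88% and 2.33% in replicates 1 and 2 at sites with 20 reads in each library. A low use leaves little room for a difference in points, so these 2 medians do not compare how well the introns repeat.

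Among the called introns, use rose most in Slc25a3, the mitochondrial phosphate carrier. An acceptor 311 bases downstream took 11 of 2197 reads in replicate 1 (0.501%) and 28 of 304 in replicate 2 (9.21%), with an adjusted Fisher exact p of 1.03e-15. A donor 4 bases downstream in the same gene went from 0.497% to 2.03% (adjusted p = 0.00323, Fisher exact). In Cyp11b1, whose members are uncertain, a donor 4 bases downstream went from 0.168% to 0.625% (adjusted p = 0.00155, Fisher exact). In Scg2, a granin of chromaffin cells, an intron with a donor 1542 bases upstream went from 0.163% to 0.895% (adjusted p = 0.0318, Fisher exact). The Scg2 member with this intron was read in replicate 2 only, so it was chosen by reads that this comparison uses again.

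Use fell most in Mapkapk3, a stress kinase, where an intron with a donor 4 bases upstream went from 16 of 20 reads (80%) to 10 of 44 (22.7%), with an adjusted Fisher exact p of 0.00103. In Agtr1a, the angiotensin II receptor, an acceptor 5265 bases downstream went from 35 of 88 reads (39.8%) to 34 of 439 (7.74%), with an adjusted Fisher exact p of 1.32e-10. In Triobp, an actin-binding protein, a donor 197 bases upstream had 18 of 98 reads and then 0 of 205, which allows up to 1.78% by the exact interval (adjusted p = 5.24e-08, Fisher exact). The only Triobp member had 17 reads in replicate 1 and 0 in replicate 2. It was thus chosen by reads that this comparison uses again, and no conclusion is drawn from its p. Both introns beside a new exon of Itpk1, an inositol phosphate kinase, fell from 23.6% to 7.63% (adjusted p = 0.0460, Fisher exact). These 2 introns come from the same reads.

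**Figure D5:**
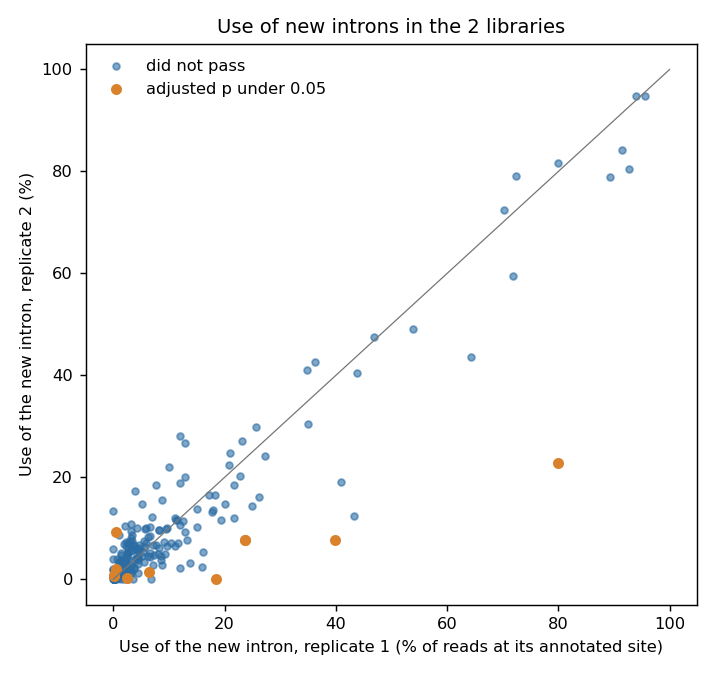
Use of each new intron in percent in replicate 1 against replicate 2, for the 273 new introns tested. The 11 called introns are in their own colour, and the line marks equal use.

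Members took up 6723 of the reads of replicate 1 (0.792%, exact 95% interval 0.773 to 0.811) and 6798 of replicate 2 (1.25%, 1.22 to 1.28). The intervals cover counting error only, here and above. Of NNC reads alone they held 27.4% and 24.6%, while 83.9% and 86.9% of NNC models had a single read. The median log2 ratio of replicate 2 over replicate 1, on CPM plus 1, was 0.91 for members and 0.20 for all 15258 spliced structures with at least 5 reads. It was higher, 1.71, for the 1442 NIC structures with at least 5 reads. The read minimum was applied to these same reads, and 5 reads were worth 5.89 CPM in replicate 1 and 9.17 CPM in replicate 2. With edgeR's TMM scaling the medians of members and of all spliced structures were 0.50 and -0.20. Within their genes, members made up a median of 3.63% of reads in 408 genes of replicate 1 and 5.56% in 345 genes of replicate 2. Each median covers only genes with at least 20 reads and a member read in that library, so the genes differ between the libraries.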

How the data were processed

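Long-read RNA-seq of 2 adrenal gland libraries was analysed. For each library the authors deposited whole-number counts of reads for every transcript model, with the exons of the models on mm10 and GENCODE M21 as reference, per the file headers and the accompanying notes. Models are credited to TALON in the annotation. The platform and the aligner, whose settings bear on exon borders, were not stated in the sources used here. All 141862 annotated transcripts had the exons of GENCODE M21.

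A splice site was called new when no annotated transcript has a site of the same kind there. Reads of a structure were counted over all classes. Distances are signed in the direction of the gene. Use was tested with Fisher's exact test (scipy 1.17.1) where an intron had at least 10 reads, the others had at least 10, and each library had at least 20 in all. The test was tried on simulated data. Intervals are exact Clopper-Pearson at 95%. Ratios used CPM with a pseudocount of 1, with edgeR 4.0.16 and DESeq2 1.42.0 scalings as alternatives. Scripts ran in Python 3.11.15 and R 4.3.3. No genome sequence was used, and letters come from annotated transcripts alone.

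Named are the 12 members with the most reads, the 6 most read introns with use of at least 50% in both libraries, the largest called changes, the 5 most read new internal exons, the most read sites of each distance class and members of the gene lists with enough reads. Short annotated exons, the other introns with high use and the printed sequences were chosen after their values were seen. The structures of 1 gene are not reported here. The members and lists were chosen with earlier results of these data known.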

Additional observations from a re-analysis of the deposited data

How the results depend on the processing

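The 699 members became 247 with a minimum of 10 reads, 29349 with no minimum, 450 when reads in both libraries were required, and 399 to 408 when either library was left out. The share of new sites within 10 bases of an annotated one, 45.3%, was 35.6% with no minimum, 41.9% to 46.7% under the other alternatives and 44.4% to 46.2% with a library left out. The share found in the other library went from 63.7% to 78.1% (replicate 1) and from 74.7% to 93.8% (replicate 2) at 10 reads, and to 69.4% and 82.2% when the new introns alone were matched. Members held 0.970% of both libraries' reads, 0.710% at 10 reads, 3.56% with no minimum, and 0.666% to 1.11% with a library left out. Their median share of gene reads, 4.62%, was 8.75% at 10 reads and 4.12% to 6.74% with a library left out. The median log2 ratio between libraries of 0.91 was 0.50 with TMM, 0.49 with DESeq2 size factors, 0.71 with a pseudocount of 5 and 1.17 at 10 reads. Called changes in use numbered 11, then 6 without the filter on reads (all among the 11), 10 with 50 reads in each library and 11 against annotated introns alone. GT or AG at new sites kept a share of 95.1% to 96.6% throughout. No paired analysis was possible because both libraries belong to 1 group. The direction of the members' median ratio was the same under all of these, while the median over all spliced structures went from 0.20 to -0.20 with TMM. Members were chosen by a read minimum on these same reads in every setting, so the unchanged direction is a description only. A structure needs 5 reads, so low use is seen only at deeply read sites, and letters were read at 409 of 821 new sites.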

Other observations

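Pdia3, a protein disulfide isomerase, had a structure with a donor 2 bases downstream and 10 and 30 reads in replicates 1 and 2 (3.22% and 5.41% of the gene). Hspd1, the mitochondrial chaperonin, had one with a donor 4 bases downstream and 10 and 19 reads (0.587% and 1.01%). Canx, the lectin chaperone calnexin, had one with a donor 36 bases upstream and 2 and 17 reads (2.38% and 5.40%). Among splicing factors outside Hnrnpk, Tra2b had an acceptor 3 bases downstream with 6 and 13 reads, which were 13.6% and 11.1% of the gene. In Hnrnpm a donor 4 bases downstream spanned an annotated exon of 8 bases and took 1 of the reads at its acceptor in replicate 1 (33.3%) and 23 in replicate 2 (52.3%).

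How often members were found in the other library was also read by the distance of their new sites from the annotation. Members whose farthest new site was 1 to 3 bases away were found in 57.5% of 80 cases from replicate 1 and 70.1% of 87 from replicate 2, and those with a site over 1000 bases away in 68.3% of 60 and 80.4% of 51. The exact 95% intervals of these shares overlap, at 45.9 to 68.5 and 55.0 to 79.7 from replicate 1, and at 59.4 to 79.5 and 66.9 to 90.2 from replicate 2.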
